A study of Homo sapiens with 2 samples.

Results

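Collagens are the main fibrous proteins of the extracellular matrix. Each is a trimer of chains that wind into a triple helix, and each chain is the product of its own gene, so the make-up of a collagen follows from which chain genes a cell transcribes. Fibrillar collagens such as type I and type III form the tensile fibres of connective tissue, type IV forms the sheet of basement membranes, and type VI forms beaded microfilaments beside both. Mesenchymal cells make most of the fibrillar kind, and tumour cells of mesenchymal character can transcribe the same genes.

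Of the 19029 genes in the authors' deposited table, 33 carried a collagen chain symbol, that is COL, a type number, A and a chain number. They were grouped by the kind of structure they form into 9 fibrillar, 4 basement membrane, 7 FACIT (fibril-associated), 3 beaded, 2 network-forming and 4 transmembrane genes, with COL7A1 of anchoring fibrils, the multiplexins COL15A1 and COL18A1, and COL26A1 beside these. RNA came from BT549, an established line of human breast cancer cells, in cells with the genotype SNHG15 overexpression and in cells with the vector control. SNHG15 is a long non-coding RNA gene. Nothing else in the labels sets the groups apart, and the sources used here do not say whether the cells were a clone or a pool. Each group held 1 library, so every difference below compares these libraries and has no replicate check.

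The library of the cells overexpressing SNHG15 (SNHG15 cells) held 16570496 counts and that of the cells with the control vector (vector cells) 20799017. Counts were divided by TMM-scaled library totals and are given as CPM, and each ratio carries an exact 95% interval of its pair of counts, which covers counting error only. SNHG15 itself was at 1997 CPM in SNHG15 cells and 23.3 CPM in vector cells. Of 5 mesenchymal markers, VIM was at 1998 CPM in SNHG15 cells and 1993 CPM in vector cells, CDH2 at 20.9 and 3.95 CPM and SPARC at 910 and 511 CPM, while FN1 was at 645 and 1163 CPM and ZEB1 at 3.19 and 5.41 CPM. The 3 epithelial markers with values summed to 0.869 CPM in SNHG15 cells and 1.75 CPM in vector cells. KRT19 had 0 and 23 counts, CDH1 12 and 11, and CLDN4 3 and 1. Of 5 haematopoietic markers, 3 had no row or no counts, CD68 was at 3.94 and 19.4 CPM and CD14 at 7.71 and 17.4 CPM. CD68 shares bases with a gene of its own strand, AC016876.3, whose log2 ratio was 1.70. How reads there were divided was not tested. Of 5 endothelial markers, 3 had no row or no counts, TEK was at 0.174 and 3.70 CPM and KDR had 1 count in each library. The pericyte and smooth muscle list, led by ACTA2, summed to 200.7 and 130.7 CPM. In it ACTA2 was at 186 and 124 CPM, RGS5 at 10.5 and 2.35 CPM and PDGFRB at 3.83 and 4.66 CPM. The chondrocyte list, led by SOX9, summed to 48.4 and 39.6 CPM. The osteoblast list summed to 7.82 and 6.16 CPM, with RUNX2 at 5.45 and 1.85 CPM and ALPL at 2.32 and 4.26 CPM. The part of these marker levels in the collagen values was not tested. Fewer cells of a type and less RNA per cell cannot be told apart in bulk RNA.

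Upstream sequences of the chain genes that differed most are given first. A gene is called beyond 2-fold here where the whole interval of its ratio lay above 2 or below 0.5. Among the 6 such chain genes, COL4A1, COL12A1, COL26A1 and COL17A1 have an entry in the RefSeq promoter table (GRCh38.p14), which held 25 of the 33 chain genes. COL1A1 and COL1A2 are named only. COL4A1 and COL4A2 are shown through the bases between their RefSeq starts, since they are transcribed away from each other and share this stretch. Capitals mark CCAAT (or ATTGG on the other strand), GGGCGG (or CCGCCC) and TATAAA (or TTTATA).
COL4A1 and COL4A2: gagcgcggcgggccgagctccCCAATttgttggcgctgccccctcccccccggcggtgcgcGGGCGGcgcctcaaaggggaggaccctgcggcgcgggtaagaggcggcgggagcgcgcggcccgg
COL12A1: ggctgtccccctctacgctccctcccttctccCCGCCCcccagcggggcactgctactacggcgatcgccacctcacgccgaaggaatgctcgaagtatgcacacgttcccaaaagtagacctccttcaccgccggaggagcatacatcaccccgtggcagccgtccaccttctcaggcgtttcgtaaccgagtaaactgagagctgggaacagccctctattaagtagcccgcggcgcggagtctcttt
COL26A1: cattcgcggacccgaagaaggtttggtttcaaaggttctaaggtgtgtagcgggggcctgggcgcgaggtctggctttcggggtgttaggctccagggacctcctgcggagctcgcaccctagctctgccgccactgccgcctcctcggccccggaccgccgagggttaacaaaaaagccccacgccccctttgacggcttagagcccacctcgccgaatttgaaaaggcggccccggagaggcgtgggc
COL17A1: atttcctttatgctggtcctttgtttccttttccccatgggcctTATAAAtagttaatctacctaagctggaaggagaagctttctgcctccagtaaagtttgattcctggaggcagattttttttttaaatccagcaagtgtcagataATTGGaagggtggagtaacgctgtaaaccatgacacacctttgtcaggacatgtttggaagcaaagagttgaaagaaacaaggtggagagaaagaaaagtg
The shared COL4A1 and COL4A2 stretch is chr13:110307158-110307283, read on the plus strand and 126 bases long. GENCODE 29 places exons of these genes over 124 of those bases. The others are the 250 bases before the start, namely chr6:75206054-75206303 on the minus strand for COL12A1, chr7:101362625-101362874 on the plus strand for COL26A1 and chr10:104085881-104086130 on the minus strand for COL17A1. In GENCODE 29, exons of COL26A1 cover 55 bases and exons of COL17A1 77 bases of their windows. Which transcripts these exons belong to was not examined. The COL4A1 and COL4A2 stretch was 80.2% G and C and held 1 CCAAT and 1 GGGCGG, which occur in 21.1% and 34.6% of all 35116 RefSeq windows of this length. The COL12A1 window held 1 GGGCGG, which 42.6% of all windows of 250 bases hold. COL26A1 held none of these motifs. COL17A1 had the lowest GC content of those printed, 40.4%, and held 1 CCAAT and 1 TATAAA, which occur in 32.0% and 10.7% of windows of 250 bases. No motif of the set overlapped another in these windows. A match describes these letters only.

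The question of the comparison was which collagen chains differ in level between cells overexpressing SNHG15 and cells with the vector. Both type I collagen chains were lower in SNHG15 cells beyond 2-fold, while no other abundant fibrillar chain was lower by as much as 1.5-fold. Of the 4 basement membrane chains COL4A1 and COL4A2 were higher by at least 1.5-fold, and none of the 3 beaded chains reached that size. Of the 33 chain genes, 26 had a mean of at least 1 CPM and were compared. In SNHG15 cells 3 of these were higher beyond 2-fold, as were 2.20% of all 12934 genes compared, and 3 were lower beyond 2-fold, as were 2.45%. Together they made 23.1% of the chain genes compared, against 4.65% of all genes compared. Of these, COL26A1 was at 5.85 CPM in SNHG15 cells and 0.501 CPM in vector cells, and COL17A1 at 0.406 and 2.003 CPM. Both reached the minimum only through the library where they were higher, so their inclusion depended on the difference itself. The chain genes also had more counts, with a median of 835.5 in SNHG15 cells and 737.5 in vector cells against 284 and 315 for all genes compared, and deeper counts give narrower intervals. By a milder rule, a ratio of at least 1.5-fold with an interval that excludes 1, 5 chain genes were higher and 5 lower, against 13.3% higher and 12.2% lower of all genes compared. COL24A1, among the lower, was at 0.522 CPM in SNHG15 cells and 1.65 CPM in vector cells. It too reached the minimum only through its higher library. Plain library totals instead of TMM moved the median log2 ratio of all genes up by 0.12 and gave 10 chain genes higher and 5 lower by the milder rule, the added ones being COL4A5, COL5A1, COL6A1, COL6A3 and COL13A1. The share of all genes by the milder rule was not computed for library totals. Ratios were above 1 for 18 of the 26 chain genes and below 1 for 8, against 51.1% above 1 over all genes compared. Intervals lay above 1 for 14 chain genes and below 1 for 7, against 30.7% and 31.3% of all genes compared. The median log2 ratio was 0.22 with quartiles of −0.26 and 0.53, beside a median of 0.02 with quartiles of −0.33 and 0.36 over all genes compared.

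**Figure D1:**
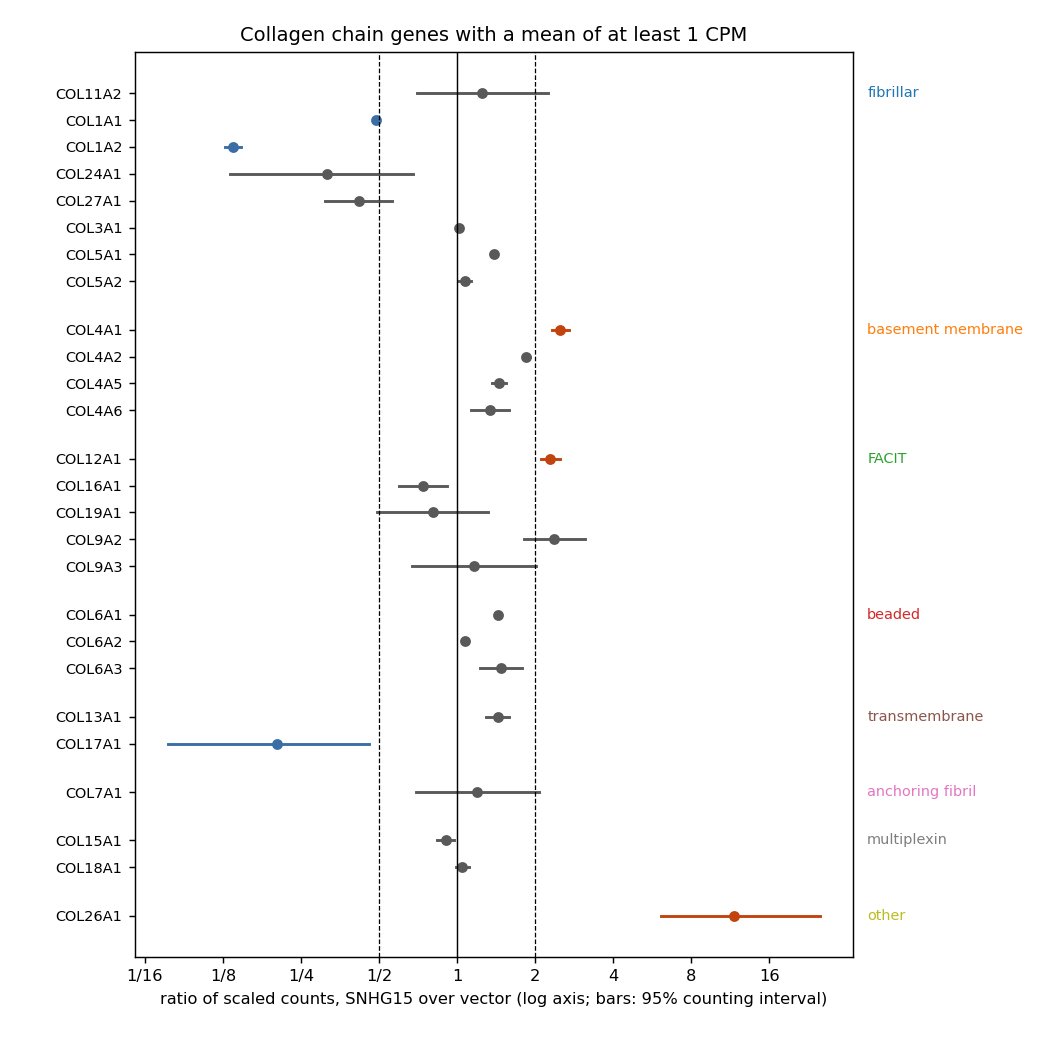
Ratio of scaled counts, SNHG15 over vector, for the 26 collagen chain genes at or above a mean of 1 CPM, on a log axis with the 95% counting interval as a bar and the class at the right. Dashed lines mark 2-fold, with COL4A1, COL12A1 and COL26A1 wholly above (red) and COL1A1, COL1A2 and COL17A1 wholly below (blue).

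The chains of type I collagen, the main collagen of bone, tendon and skin, were the fibrillar chains beyond 2-fold, both lower in SNHG15 cells. COL1A2 (ENSG00000164692, plus strand of chromosome 7, 94394561 to 94431232, hg38), which encodes the alpha 2 chain, had 801 counts (46.4 CPM) in SNHG15 cells and 6793 counts (340.1 CPM) in vector cells. Its ratio was 0.137 (0.127 to 0.147), that is 7.33-fold lower. COL1A1 (ENSG00000108821, minus strand of chromosome 17, 50183289 to 50201632), which encodes the alpha 1 chain, had 10780 counts (625 CPM) in SNHG15 cells and 25771 counts (1290.2 CPM) in vector cells. Its ratio of 0.484 (0.473 to 0.495) lay just past 2-fold, and it was 0.525 when scaled by library totals and 0.573 with the trend on GC content removed, short of the call. The chains thus differed from each other, the COL1A2 ratio being 0.282 of the COL1A1 ratio (exact interval of the 4 counts 0.261 to 0.304), a quantity in which the scaling cancels. Per length, COL1A1 was 17.1 times the level of COL1A2 in SNHG15 cells and 4.83 times in vector cells by the deposited FPKM. By counts per length of the longest protein-coding transcript, an alternative chosen after seeing the data, COL1A1 was 10.8 and 3.05 times COL1A2. The size of this excess thus depends on the transcript length used. The difference between libraries cannot depend on it, because the length cancels there.

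The other abundant fibrillar chains did not share the lower level of type I. COL3A1, the only chain of type III collagen of reticular fibres, had 23852 counts (1382 CPM) in SNHG15 cells and 27091 counts (1356 CPM) in vector cells, a ratio of 1.02 (1.002 to 1.037) that was below 1 at 0.990 by DESeq2 size factors, 0.982 with the trend on GC content removed and 0.979 with the trend on length removed. Relative to COL1A1 its ratio was 2.10 times as high (2.05 to 2.17). Type V collagen sits within type I fibrils and starts their assembly. COL5A1 was at 1040.4 CPM in SNHG15 cells and 749 CPM in vector cells, a ratio of 1.39 (1.36 to 1.42), and COL5A2 at 156 and 145 CPM, a ratio of 1.07 (1.02 to 1.13). COL5A3 had 0 and 2 counts. COL3A1 and COL5A2 lie tail to tail on chromosome 2 with 19149 bases between them, and the COL5A2 ratio was 1.05 times the COL3A1 ratio (0.994 to 1.11), an interval that includes 1.

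Minor fibrillar chains were low. COL27A1, a chain of cartilage and of developing bone, had 64 counts in SNHG15 cells and 177 in vector cells, a ratio of 0.419 (0.309 to 0.560), and COL24A1 had 9 and 33 counts, a ratio of 0.316 (0.133 to 0.674). Both passed the milder rule only. COL11A2 of cartilage type XI collagen had 27 and 25 counts and a ratio of 1.25 with an interval that includes 1 (0.699 to 2.25). Of the 8 fibrillar genes compared, 2 were lower and 0 higher beyond 2-fold, against 2.45% and 2.20% of all genes compared. By the milder rule 4 were lower and 0 higher, against 12.2% and 13.3% of all genes compared. The absence of higher genes by that rule depends on the scaling. COL5A1 passed it by library totals (1.506), with the trend on GC content removed (1.61) and relative to neighbouring genes (1.56). The median log2 ratio of the class was −0.51.

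**Figure D2:**
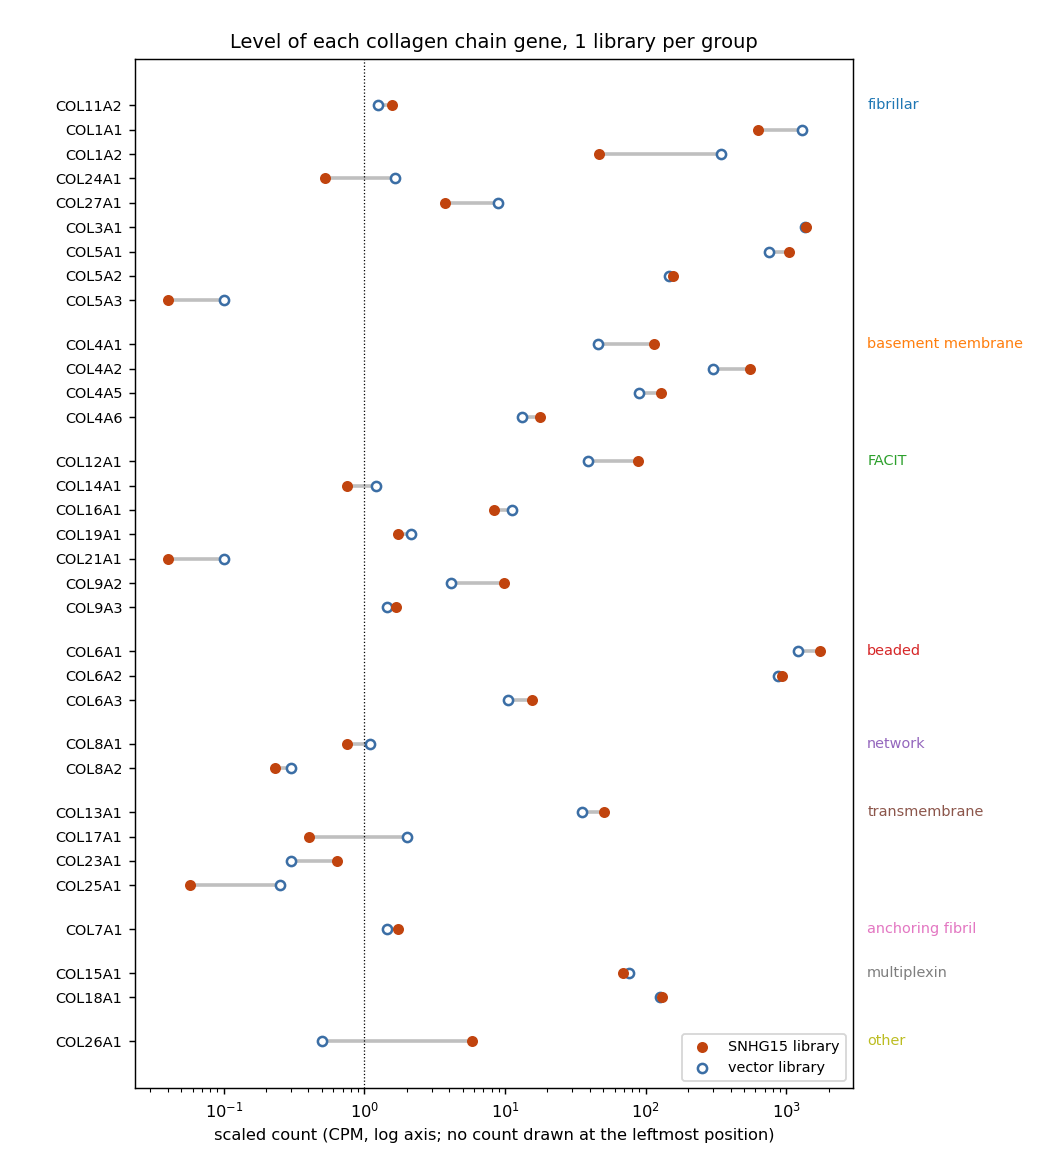
Scaled count (CPM, log axis) of each of the 33 collagen chain genes, grouped by class, in SNHG15 cells (filled) and vector cells (open), joined by a line, with a dotted line at 1 CPM. The longest line between abundant points is that of COL1A2, at 46.4 and 340.1 CPM.

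Of the 4 basement membrane genes, COL4A1 was higher beyond 2-fold and COL4A2 by the milder rule, while COL4A5 and COL4A6 had ratios above 1 that passed neither. COL4A1 (ENSG00000187498, minus strand of chromosome 13, 110148963 to 110307149), which with COL4A2 forms the most widespread type IV collagen, had 1983 counts (115 CPM) in SNHG15 cells and 917 counts (45.9 CPM) in vector cells, a ratio of 2.50 (2.31 to 2.71). COL4A2 (plus strand of chromosome 13, 110305812 to 110513027) had 9520 counts (552 CPM) and 5954 counts (298.1 CPM), a ratio of 1.85 (1.79 to 1.91), past the milder rule. The pair starts from the short stretch printed above and went the same way, but not to the same extent, since the COL4A2 ratio was 0.739 of that of COL4A1 (0.679 to 0.805). Per length by the deposited FPKM, COL4A2 was 4.40 times the level of COL4A1 in SNHG15 cells and 5.95 times in vector cells. In the table the models of both genes overlap by 1338 bases on opposite strands, and the sources used here do not say whether the libraries kept strand, so reads there may be divided between them.

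COL4A5 and COL4A6, another pair transcribed away from each other, lie on chromosome X with 346 bases between their models. COL4A5, which is mutated in most families with Alport syndrome, was at 129 CPM in SNHG15 cells and 89.1 CPM in vector cells, a ratio of 1.45 (1.36 to 1.54). COL4A6 was at 17.7 and 13.3 CPM, a ratio of 1.34 (1.13 to 1.58). The ratio of COL4A6 was 0.925 of that of COL4A5 (0.773 to 1.11), an interval that includes 1, so a difference between these chains was not detectable at this depth. The median log2 ratio of the 4 basement membrane genes was 0.71.

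Among the beaded chains, COL6A1 was the most abundant collagen message per length in both libraries. It was at 1736 CPM in SNHG15 cells and 1207 CPM in vector cells, a ratio of 1.44 (1.41 to 1.46). COL6A2 was at 928 and 866 CPM, a ratio of 1.07 (1.05 to 1.10), and the ratios of these neighbours on chromosome 21 differed, that of COL6A2 being 0.745 of that of COL6A1 (0.725 to 0.766). With the trend on GC content removed the COL6A2 ratio was 1.35 (1.32 to 1.38). COL6A3, the long chain that joins these 2 chains in the classical type VI trimer, had 267 counts (15.5 CPM) and 210 counts (10.5 CPM), a ratio of 1.47 (1.22 to 1.77). Its level per length was far below its partners, at 0.619 FPKM in SNHG15 cells and 0.388 FPKM in vector cells, where COL6A1 was at 243.7 and 156.3 FPKM. No beaded chain passed the milder rule, and the median log2 ratio of the 3 was 0.52. That depends on the scaling, since COL6A1 passed it by library totals (1.56), with the trend on GC content removed (1.77) and relative to neighbouring genes (1.57), and COL6A3 by library totals (1.596).

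Among the FACIT genes, whose products sit on the surface of fibrils, COL12A1 (ENSG00000111799, minus strand of chromosome 6, 75084326 to 75206051), a chain found on type I fibrils, had 1526 counts (88.4 CPM) in SNHG15 cells and 772 counts (38.6 CPM) in vector cells. Its ratio of 2.29 (2.10 to 2.50) was beyond 2-fold but fell short of the call with the trend on GC content removed (2.10, 1.92 to 2.29), with the trend on length removed (2.10, 1.93 to 2.30) and relative to neighbouring genes (2.05, 1.88 to 2.24). COL9A2 of cartilage type IX collagen had 170 and 83 counts, a ratio of 2.37 (1.81 to 3.12), past the milder rule. Its partner COL9A3 had 29 counts in each library, and the ratio of COL9A2 was 2.05 times that of COL9A3 (1.10 to 3.80). COL16A1 had 144 and 225 counts, a ratio of 0.741 (0.597 to 0.917). With the trend on GC content removed it was 0.898, with an interval that includes 1 (0.724 to 1.11). COL19A1 had 30 and 43 counts and an interval that includes 1 (0.489 to 1.32). COL14A1 had 13 and 24 counts and COL21A1 0 and 2, below the minimum. Over the 5 FACIT genes compared the median log2 ratio was 0.20.

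The remaining chains were mostly low. COL26A1 (ENSG00000160963, plus strand of chromosome 7, 101362820 to 101559024), which encodes a protein with an EMI domain beside its collagen stretches, had 101 counts (5.85 CPM) in SNHG15 cells and 10 counts (0.501 CPM) in vector cells, a ratio of 11.7 (6.10 to 25.1). This was the highest ratio of the 26 chain genes compared, at a low level. COL17A1 (ENSG00000065618, minus strand of chromosome 10, 104031286 to 104086002), a transmembrane collagen of the hemidesmosomes that hold epithelium to its basement membrane, had 7 counts (0.406 CPM) and 40 counts (2.003 CPM), a ratio of 0.203 (0.0766 to 0.457). Its call rested on few counts. COL13A1, a transmembrane collagen of cell adhesion sites, had 870 and 703 counts, a ratio of 1.43 (1.30 to 1.58). COL23A1 had 11 and 6 counts and COL25A1 1 and 5, below the minimum.

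With TMM scaling the multiplexins, whose C-terminal fragments include endostatin in the case of COL18A1, were level between the libraries or nearly so. COL18A1 was at 131 CPM in SNHG15 cells and 125 CPM in vector cells, a ratio of 1.05 (0.990 to 1.11), and COL15A1 at 68.9 and 76.3 CPM, a ratio of 0.903 (0.837 to 0.975). The COL18A1 interval lay above 1 by library totals (1.14, 1.07 to 1.20), relative to neighbouring genes (1.17, 1.10 to 1.24) and with the trend on GC content removed (1.36, 1.28 to 1.44). It included 1 by DESeq2 size factors (1.02) and with the trend on length removed (0.987). COL7A1 of the anchoring fibrils of skin had 30 and 29 counts, an interval of 0.695 to 2.07. The network-forming chains COL8A1, at 13 and 22 counts, and COL8A2, at 4 and 6 counts, were below the minimum. In all, 7 of the 33 chain genes did not reach a mean of 1 CPM and none of these was beyond 2-fold. Their counts were few and the intervals wide (0.719 to 6.99 for COL23A1), so the absence of calls says little of these chains. The share called among all genes under the minimum was not computed. A floor of 3 counts corresponded to 0.174 CPM in SNHG15 cells and 0.150 CPM in vector cells.

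**Figure D3:**
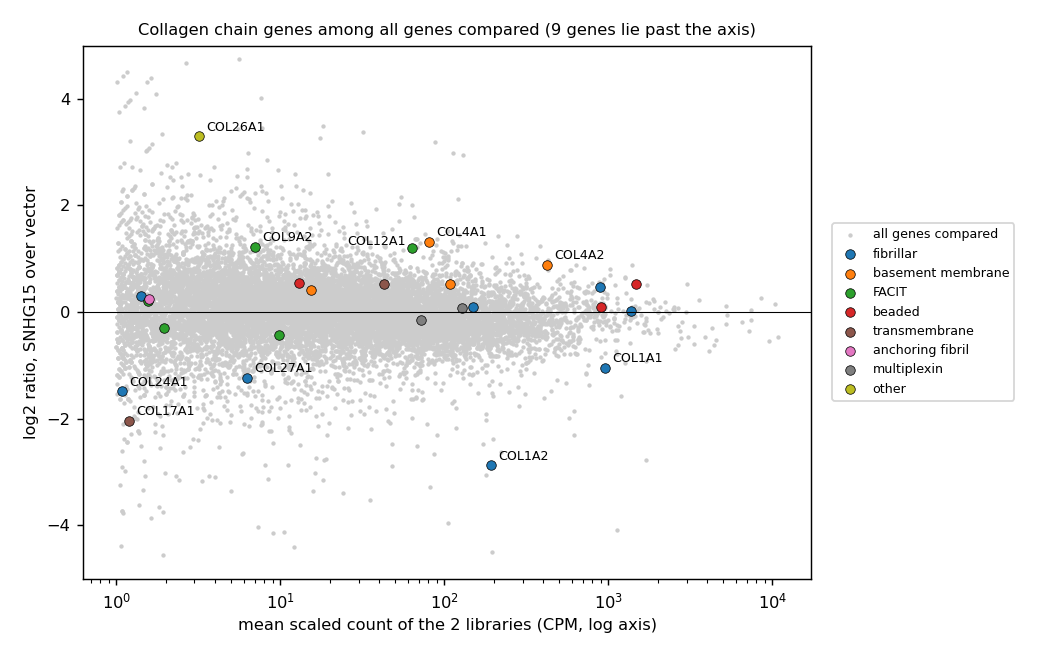
Log2 ratio, SNHG15 over vector, against the mean scaled count (CPM, log axis) of the 12934 genes compared (grey) and the 26 collagen chain genes among them (coloured by class, named where past 1.5-fold with an interval that excludes 1). COL1A2 at −2.87 and COL26A1 at 3.29 are the extreme chain genes, and 9 of the genes compared lie past the axis.

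Summed over all 33 chain genes, collagen messages took 122831 counts, or 0.741% (0.737 to 0.745) of the counts of SNHG15 cells, and 134310 counts, or 0.646% (0.642 to 0.649) of the counts of vector cells (Clopper-Pearson 95% intervals). In scaled counts the sum was 7119 CPM in SNHG15 cells and 6724 CPM in vector cells, a ratio of 1.06 (1.05 to 1.07), and by summed FPKM it was 780.0 in SNHG15 cells and 646 in vector cells. By deposited FPKM, which is per length, fibrillar chains made 37.8% of the summed collagen level in SNHG15 cells and 49.0% in vector cells. Beaded chains made 46.6% and 40.1%, and basement membrane chains 10.8% and 6.50%. COL6A1 was the highest chain in both libraries, with 31.2% in SNHG15 cells and 24.2% in vector cells, and COL3A1 came next with 19.7% and 21.5%. COL1A1 made 6.43% in SNHG15 cells and 14.8% in vector cells, and COL1A2 made 0.375% and 3.06%. In the order of all genes of the table by FPKM, COL1A1 ranked 707 in SNHG15 cells and 386 in vector cells, COL1A2 6009 and 1728, and COL4A1 2349 and 4503.

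**Figure D4:**
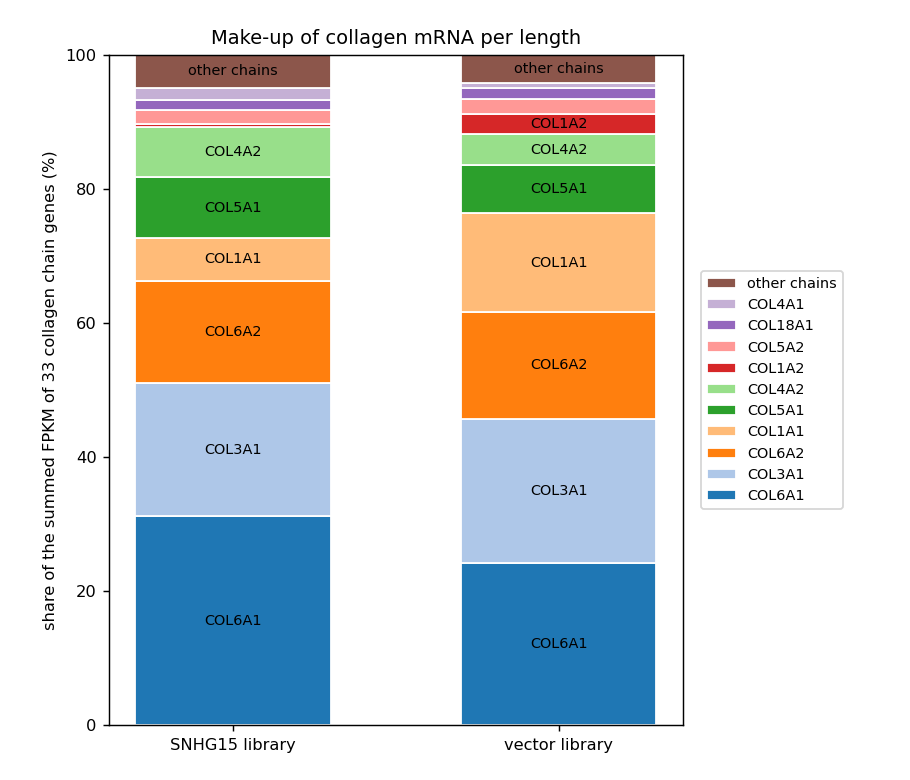
Share of each chain in the summed FPKM of the 33 collagen chain genes, in percent, in SNHG15 cells (left) and vector cells (right). COL1A1 takes 6.43% and 14.8%, COL6A1 31.2% and 24.2%, and COL4A2 7.50% and 4.51%.

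Chain genes were also set beside their chromosomal neighbours and their base composition, since ratios in these libraries differed along chromosomes and with GC content. The median log2 ratio of the 20 nearest genes on each side was −0.04 for COL1A2, 0.01 for COL1A1, 0.06 for COL4A1, 0.16 for COL12A1, 0.25 for COL17A1 and −0.46 for COL26A1, while these genes were at −2.87, −1.05, 1.32, 1.19, −2.04 and 3.29. Of the 26 chain genes, 18 lay above the median of their neighbours and 8 below, the same genes as those with ratios above and below 1. With that median subtracted, the median log2 ratio was 0.28 for the chain genes and 0.0009 over all genes compared. Across 12895 genes, which are not independent replicates, the log2 ratio fell with transcript GC content (Spearman's rho −0.33). The chain genes compared had a median GC content of 57.3%, against 49.9% for all genes compared, and with that trend removed their median log2 ratio was 0.45. Of the 26, 0 shared bases with a tabulated gene of their own strand and 5 with one of the opposite strand, namely COL4A1, COL4A2, COL9A3, COL15A1 and COL18A1.

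Genes that make, export, trim, link, bind or degrade collagen were examined as 7 lists of 68 genes, of which 57 were compared. Among these 0 were higher and 4 lower beyond 2-fold, against 2.20% and 2.45% of all genes compared, and 5 were higher and 11 lower by the milder rule, against 13.3% and 12.2% of all genes compared. Among enzymes and chaperones of the endoplasmic reticulum that act on new chains, the prolyl hydroxylase subunit P4HA1 (ratio 1.52), the galactosyltransferase COLGALT2 (1.82) and the export receptor MIA3 (1.53) were higher by the milder rule and no gene was lower. Of 10 genes of prolyl hydroxylation 1 was higher and 0 lower by the milder rule, with a median log2 ratio of 0.06, and P4HB, the beta subunit of prolyl 4-hydroxylase, was at 843 CPM in SNHG15 cells and 763 CPM in vector cells, a ratio of 1.11 (1.08 to 1.13). PPIB, the cyclophilin of the prolyl 3-hydroxylase complex, was at 859.8 and 871 CPM, a ratio of 0.987 (0.966 to 1.01). Of 8 genes of lysyl hydroxylation and glycosylation 1 was higher and 0 lower, with a median of −0.15. Here the galactosyltransferase COLGALT1 had a ratio of 0.789 (0.774 to 0.805) and the lysyl hydroxylase PLOD1 one of 0.893 (0.875 to 0.912). Of 10 genes of folding and export 1 was higher and 0 lower, with a median of 0.21. SERPINH1, the collagen chaperone HSP47, was at 789 and 846 CPM, a ratio of 0.933 (0.912 to 0.954), and SEC13, a coat protein of export vesicles, had a ratio of 1.25 (1.20 to 1.30).

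The 11 lower genes were in the 4 lists of propeptide removal, crosslinking, receptors and uptake, and degradation, and a difference between lists was not tested. Besides those described below, the lower genes were FURIN (ratio 0.580), PCOLCE (0.610), DDR2 (0.509), MMP1 (0.491), FAP (0.510) and MMP9 (0.505). Higher in these lists were PCOLCE2 (1.57), which shares bases with a gene of its own strand, and ITGA10 (1.69). The lists are short, and over all genes compared 12.2% were lower and 13.3% higher by the same rule. Of 6 genes of propeptide removal compared, 1 was higher and 3 lower by the milder rule, with a median log2 ratio of −0.55. ADAMTS2, the protease that removes the N-propeptide of type I procollagen, had 3087 counts (179 CPM) in SNHG15 cells and 8118 counts (406 CPM) in vector cells, a ratio of 0.440 (0.422 to 0.459). Of 5 crosslinking genes compared, 2 were lower and 0 higher, with a median of −0.50. TGM2, a transglutaminase, had 3992 and 18251 counts, a ratio of 0.253 (0.245 to 0.262), and LOXL3, a lysyl oxidase, had 8 and 44 counts, a ratio of 0.210 (0.0856 to 0.452). The far more abundant LOXL2 was at 3049 and 3649 CPM, a ratio of 0.836 (0.826 to 0.845), and shares bases with a gene of its own strand. LOX had a ratio of 0.706 (0.659 to 0.755) and LOXL1 one of 1.16 (1.11 to 1.21). LOXL2, LOX and LOXL1 passed neither rule. Of 8 receptor and uptake genes compared, 1 was higher and 2 lower, with a median of 0.07. ITGA11, the alpha subunit of an integrin that binds fibrillar collagen, had 190 and 851 counts, a ratio of 0.258 (0.220 to 0.303). Of 10 degradation genes compared, 4 were lower and 0 higher, with a median of −0.50. The gelatinase MMP2 had a ratio of 0.558 (0.539 to 0.577) and shares bases with a gene of its own strand, and the membrane protease MMP14 had a ratio of 0.734 (0.711 to 0.758), short of the milder rule.

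**Figure D5:**
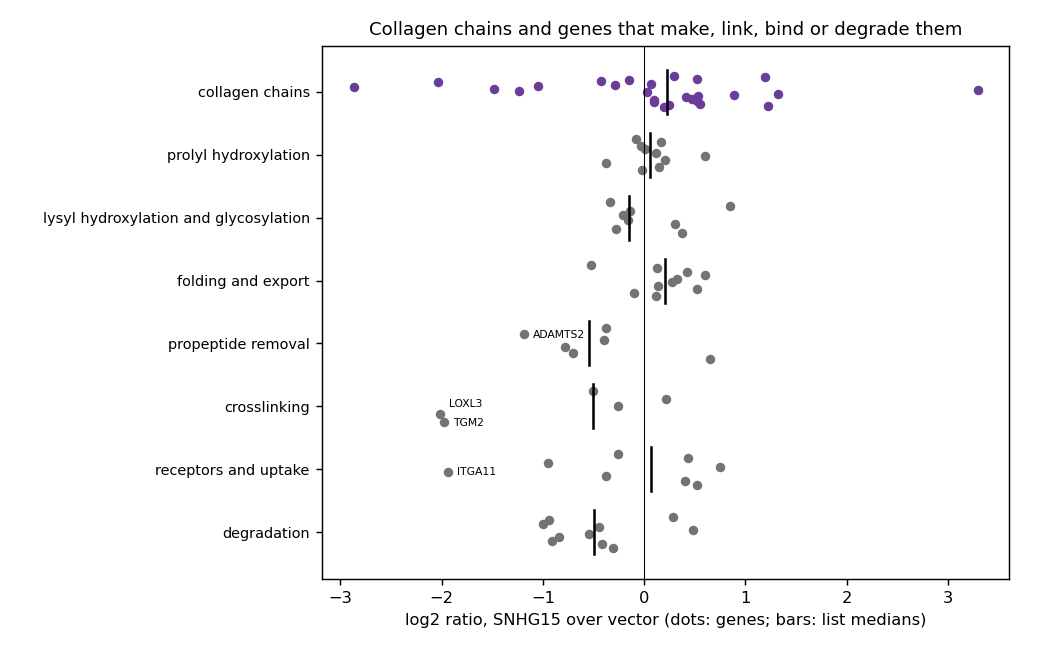
Log2 ratio, SNHG15 over vector, of the collagen chain genes and of the genes of 7 collagen pathway lists with a mean of at least 1 CPM. Each dot is a gene and each bar the median of its list, with ADAMTS2, TGM2, LOXL3 and ITGA11 the 4 pathway genes beyond 2-fold.

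In the authors' deposited table, 5 of the 33 chain genes were called higher and 4 lower, against 929 and 622 of all 19029 genes. COL1A1 was not among these calls, at a log2 FPKM ratio of −0.93 in the authors' deposited table, which equals its ratio by library totals. The p-values of that table come from 1 library per group and were not used.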

How the data were processed

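Per the labels, total RNA of BT549 cells was sequenced, with 1 library for each genotype. The submitters' processing notes name hg38 as the build. The sources used here do not give the aligner, counter, annotation release or strand setting. The authors deposited raw counts per gene as whole numbers, beside FPKM values that divide them by gene length and library total. The deposited log2 ratio is that of the FPKM, and its p-values are attributed to edgeR in the deposited name of that table. The smaller deposited tables repeat its rows and were left out.

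TMM factors (1.04 for SNHG15 cells, 0.960 for vector cells) came from edgeR 4.0.16 under R 4.3.3. Ratios carry exact conditional-binomial (Clopper-Pearson) 95% intervals, computed with scipy 1.17.1. Reads are not independent molecules, so intervals and floors cover counting error only. With 1 library per group no p-value was computed. Log2 ratios used a prior count of 2, and genes were compared if their mean reached 1 CPM. The interval of a ratio between chains is that of the conditional odds ratio. GC content and length came from GENCODE 29, which matched 18903 identifiers. The alternatives tried were size factors of DESeq2 1.42.0, plain library totals, other minimums, a thinned deeper library, loess removal (span 0.5) of GC or length trends, subtraction of neighbouring genes, point ratios, other prior counts, FPKM with pseudocounts, means, protein-coding genes only and members without overlap. The functions were tested on simulated data.

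All 26 chain genes above the minimum are named, and of each pathway list the genes beyond 2-fold (at most 3) or else the 2 most abundant. Every other pathway gene past the milder rule and all crosslinking genes compared are named too. The members, classes and lists were chosen with earlier results of these data known.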

Additional observations from a re-analysis of the deposited data

How the results depend on the processing

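No paired analysis was possible because each group held 1 library, and for the same reason no library could be left out. The calls of COL1A2, COL4A1, COL26A1 and COL17A1 held under every alternative in which they were compared. With a minimum of 5 CPM, COL26A1 and COL17A1 were not compared. Of the 19 chain genes left, 2 were higher and 2 lower beyond 2-fold, against 1.68% and 2.40% of all 9661 genes compared. Point ratios without intervals put 5 chain genes 2-fold lower and 4 higher, against 4.88% and 5.44% of all genes compared. By the 1.5-fold rule, library totals gave 10 higher, removal of the GC trend gave 8 higher, and a minimum of 5 CPM gave 3 lower. The shares of all genes by this rule were not computed under these settings, so these counts have no background. The median log2 ratio of all genes was 0.13 by library totals and 0.0008 with the GC trend removed, against 0.02 in the main setting. COL1A1 and COL12A1 lost the 2-fold call under the alternatives named beside them. COL9A2 gained it with the GC trend removed (3.03) and COL24A1 relative to neighbouring genes (0.223). The median log2 ratio of the chain genes was positive under all alternatives, from 0.10 with no minimum to 0.45 with the GC trend removed, and the mean of members was 0.09 (−0.03 with no minimum). The ratio of COL1A2 to that of COL1A1 was between 0.232 and 0.292 under all 4 alternatives that can change it. No biological replicates were analysed here, and depth limits what can be said of the chains with few counts.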
